A study of Mus musculus with 7 samples.

Results

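γ-aminobutyric acid (GABA) is made, broken down, moved and sensed by a small set of proteins, and 9 of their genes were followed here in the islet transcriptome of mice with and without Wnt4 in β-cells. The genes were Gad1, Gad2, Abat, Aldh5a1, Slc32a1, Slc6a13, Gabra4, Gabbr1 and Gabbr2. Their probes were found by matching the transcript accession of each array probe to a gene, and every matching probe was kept. This gave 11 probes, with 2 probes each for Abat and Gabbr1 and 1 for every other gene, out of 32994 probes named for 22911 genes. The genes were picked with results of the same comparison known, so their values are given as a description and without a test.

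The study asked what loss of WNT4 in β-cells does to the transcriptome of young adult islets. Controls (n = 3, replicates 2, 3 and 4) were Pdx1CreER Tg-; Wnt4 fl/fl and were also labelled WT, and the mutants, Wnt4βKO (n = 4, replicates 1 to 4), were Pdx1CreER Tg+; Wnt4 fl/fl. All 7 samples thus carried the floxed Wnt4 alleles, came from a line crossed to C57BL/6J, and received tamoxifen (50 mg/mL, 2 doses by gavage on alternate days, from 4 to 5 weeks of age). The animals were male littermates, and whole islets were collected at 7 weeks. The Pdx1 promoter drives the tamoxifen-inducible Cre, and because no control carried Cre, loss of Wnt4 and the presence of active Cre cannot be told apart. Whether each array held the islets of 1 mouse or of several was not given in the sources used here, so the errors measure the spread between these samples only. RNA (50 ng) was labelled with Cy3 and hybridised to 1-colour oligonucleotide arrays. All 7 arrays lay on 1 slide and were scanned together, 45.5% to 49.0% of the spots that are not controls were well above background on each, and 0 spots were saturated.

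Wnt4 itself was measured by 1 probe, whose normalised log2 signal was 11.56, 11.17 and 11.77 in control 2, 3 and 4 and 11.30, 10.80, 11.04 and 10.92 in Wnt4βKO 1 to 4. The mean difference was -0.49 ± 0.17 (limma SE), or 71.3% of the control level, and the groups overlapped because control 3 lay below Wnt4βKO 1. Whether this probe lies inside the deleted part of the gene was not given in the sources used here.

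GABA is best known as an inhibitory transmitter of the brain, but β-cells also make it and release it, and islet cells carry receptors for it. The glutamate decarboxylases, encoded by Gad1 and Gad2, form GABA from glutamate. GABA transaminase, encoded by Abat, removes the amino group in the mitochondrion, and succinate semialdehyde dehydrogenase, encoded by Aldh5a1, oxidises the product to succinate. This route from glutamate back into the citric acid cycle is called the GABA shunt. Slc32a1 encodes the vesicular GABA transporter, and Slc6a13 a GABA transporter of the plasma membrane. Gabra4 encodes the α4 subunit of GABA-A receptors, which are chloride channels, and Gabbr1 and Gabbr2 encode the subunits that together form the G-protein-coupled GABA-B receptor.

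Promoter sequences are shown for Gabra4, the receptor gene whose groups did not overlap, and for Gad1, the gene of GABA synthesis and the most variable of the measured genes. They run 5′ to 3′ on the gene's strand from 250 bases before to 50 bases after the annotated start and were taken from RefSeq on GRCm38.p6. Capitals mark a GC-box core (GGGCGG, or CCGCCC on the other strand) or a TATA core (TATAAA, or TTTATA on the other strand). The Gabra4 window is chr5:71658259-71658558 on the minus strand, and the Gad1 window is chr2:70561879-70562178 on the plus strand.
Gabra4: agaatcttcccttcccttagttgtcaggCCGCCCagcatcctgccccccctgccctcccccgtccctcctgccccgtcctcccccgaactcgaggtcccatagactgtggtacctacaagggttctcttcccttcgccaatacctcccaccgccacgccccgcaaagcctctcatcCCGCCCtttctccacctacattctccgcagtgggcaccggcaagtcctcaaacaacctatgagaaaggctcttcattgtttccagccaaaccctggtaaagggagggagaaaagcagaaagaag
Gad1: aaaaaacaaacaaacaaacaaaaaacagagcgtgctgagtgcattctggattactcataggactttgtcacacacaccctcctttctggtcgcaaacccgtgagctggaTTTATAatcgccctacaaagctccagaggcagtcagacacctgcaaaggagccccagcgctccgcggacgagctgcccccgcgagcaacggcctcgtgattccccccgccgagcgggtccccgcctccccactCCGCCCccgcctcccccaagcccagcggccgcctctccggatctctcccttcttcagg
The Gabra4 window held 2 GC-box cores, 222 and 74 bases before the start, and no TATA core. The Gad1 window held a TATA core 141 bases and a GC-box core 8 bases before the start. The windows were rich in G and C, with 58.7% for Gabra4 and 60% for Gad1. The table held windows for 8 of the 9 genes, 10 windows in all, and none for Abat. A GC-box core stood in 5 of these 10 windows (Gabbr1, Gabbr2, Gabra4, Gad1 and Slc6a13) and in 35.7% of all 32851 windows. A TATA core stood in 1 of them, that of Gad1, and in 13.6% of all windows. The core of the TCF/LEF motif, through which β-catenin acts on Wnt target genes (TCAAAG, or CTTTGA on the other strand), stood in 1 of the 10, that of Slc6a13, and in 16% of all windows. These are matches of letters in a short window and not measured binding sites.

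Of the 9 genes, 5 were measured above background in islets: Abat, Gad1, Aldh5a1, Gabra4 and Gabbr1. Testing was limited to probes that the scanner software marked as well above background in 3 or more arrays, which were 26151 of the 56605 probes and 7 of the 11 GABA probes. Abat and Gabra4 had lower signals in every Wnt4βKO array than in any control array, whereas Gad1, Aldh5a1, Gabbr1 and the second Abat probe had overlapping groups. Thus 2 of the 7 tested probes had groups that did not overlap, both lower in Wnt4βKO, and over all tested probes this share was 3.7% for lower, 3.54% for higher and 7.24% for either direction. Since the genes were chosen on this comparison, the count is not evidence about them. No GABA probe passed an adjusted limma p of 0.05, a threshold that 4 probes, or 0.0153%, passed over the whole array (0.00765% lower and 0.00765% higher). At an unadjusted p of 0.05, 6.96% of all tested probes passed (3.63% lower and 3.33% higher). No such p is given for the GABA probes, since they were chosen on this comparison. Of the 7 probes, 4 were lower and 3 were higher in Wnt4βKO, with a median difference of -0.18, beside 0.0027 over all tested probes.

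**Figure D1:**
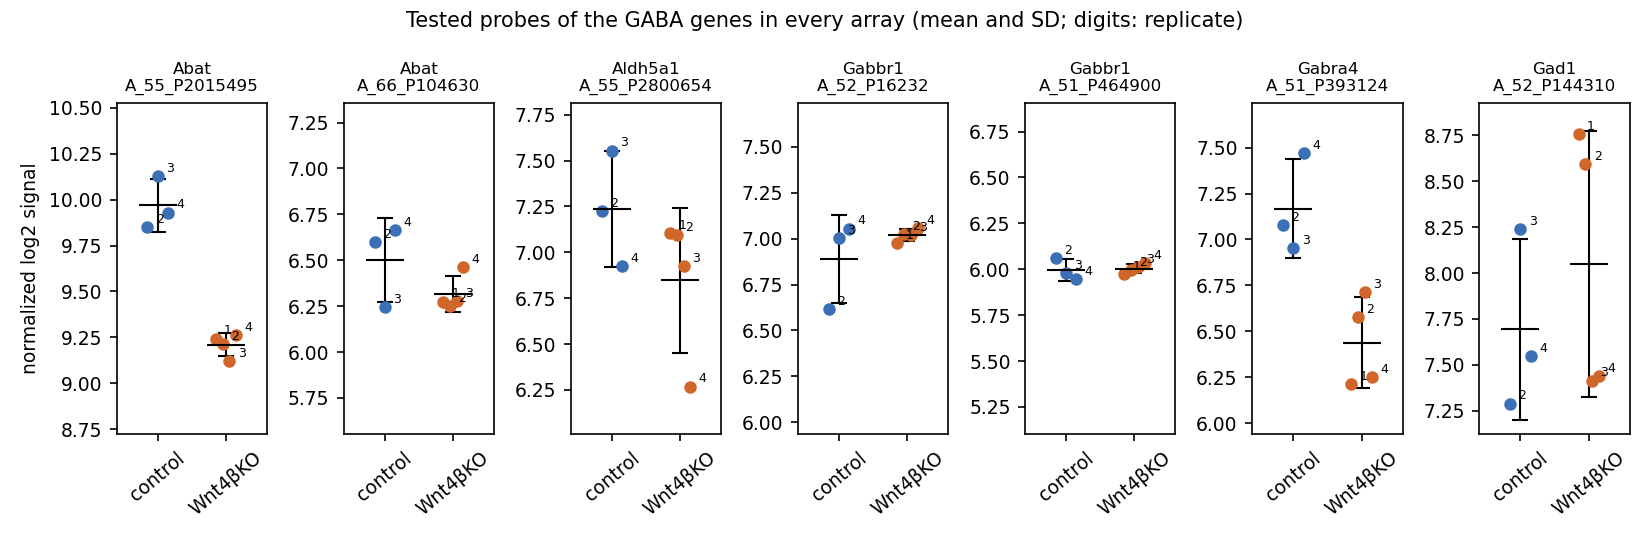
Normalised log2 signal of the 7 tested probes of the GABA genes in each array, with 1 panel per probe, points for the arrays (digits give the replicate), and bars for the mean and SD of 3 control and 4 Wnt4βKO arrays; all panels span the same number of log2 units. Abat (A_55_P2015495) and Gabra4 show groups that do not overlap, while the 2 highest Gad1 values, 8.76 and 8.59, are those of Wnt4βKO 1 and 2.

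Abat, the first step of GABA breakdown, was read by probe A_55_P2015495 at 9.85, 10.13 and 9.93 in control 2, 3 and 4 and at 9.24, 9.21, 9.12 and 9.26 in Wnt4βKO 1 to 4. The 4 mutant arrays lay within a narrow band, and the lowest control was 0.59 above the highest of them. The control mean was 9.97 ± 0.14 (SD, n = 3) and the Wnt4βKO mean 9.21 ± 0.063 (SD, n = 4). The difference was -0.76 ± 0.088 (limma SE), which is 59.1% of the control level, and 0.528% of all tested probes had a lower difference. The pooled SD within groups was 0.103, and 27.7% of tested probes varied less. Before background correction and normalisation the median spot intensities were 674, 1416 and 945 in the controls and 683, 565, 495 and 494 in Wnt4βKO. In these raw intensities control 2 lay just below Wnt4βKO 1, so that the gap between the groups was seen only after normalisation between arrays. With each array scaled to its median only, the difference was -0.77 ± 0.24 (limma SE) and the same 2 arrays again overlapped, at 9.49 and 9.51.

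The second Abat probe, A_66_P104630, was matched to another transcript accession of the gene and was dim. Its log2 signal was 6.60, 6.24 and 6.67 in the controls and 6.27, 6.25, 6.28 and 6.46 in Wnt4βKO. Control 3, the array highest on the first probe, was the lowest of all 7 on this one, and the groups overlapped, with a difference of -0.18 ± 0.12. With control 3 left out the groups of this probe no longer overlapped. The 2 probes thus had the same direction but differed in size, and averaged over both probes the Abat difference was -0.47 ± 0.069. A further probe that only the study's own annotation assigns to Abat, and 1 that it assigns to Gabra4, were well above background on 0 of the 7 arrays.

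Aldh5a1, the enzyme downstream of Abat, had log2 signals of 7.23, 7.55 and 6.93 in the controls and 7.10, 7.09, 6.93 and 6.27 in Wnt4βKO. The lowest value was that of Wnt4βKO 4, and the other 3 mutant arrays lay between the control values or level with control 4. The difference was -0.39 ± 0.24, within the spread of the arrays, whose pooled SD of 0.365 was larger than that of 90.4% of tested probes. It was 0.17 among the arrays of the upper slide row (control 4, Wnt4βKO 1 and 2), which hold a single control, -0.79 among those of the lower row (control 2 and 3, Wnt4βKO 3 and 4), and -0.41 ± 0.25 with the row as a block. With the replicate number as a block it was -0.47 ± 0.14, though whether these numbers pair the samples is not known. The difference was -0.19 without Wnt4βKO 4 and -0.23 without control 3. Without control 4 it was -0.54 and the groups did not overlap. Wnt4βKO 4 was also the array with the highest mean signal of 10 immune cell markers, 8.92 beside 7.59 to 8.10 in the other mutants and 7.69 to 7.93 in the controls, and the part of this in the Aldh5a1 value was not tested.

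For the making of GABA, Gad1 was the gene that could be measured. Its log2 signal was 7.29, 8.24 and 7.55 in control 2, 3 and 4 and 8.76, 8.59, 7.41 and 7.44 in Wnt4βKO 1 to 4. The arrays fell into a high set (control 3, Wnt4βKO 1 and 2) and a low set (control 2 and 4, Wnt4βKO 3 and 4), each with arrays of both groups, and the highest array was 2.77-fold above the lowest. The difference of 0.36 ± 0.41 was smaller than its error, and the pooled SD of 0.642 was larger than that of 98.7% of tested probes. Within the upper slide row, which holds a single control, the difference was 1.13 and within the lower row -0.34. With 1 array left out the difference ran from 0.12 (without Wnt4βKO 1) over 0.16 (without control 2) and 0.18 (without Wnt4βKO 2) to 0.63 (without control 3), 0.57 (without Wnt4βKO 3) and 0.56 (without Wnt4βKO 4). The mean signal of the 7 α-cell markers measured on every array was 8.30, 8.09 and 8.24 in the 3 arrays high in Gad1 and 8.03 to 8.26 in the other 4. Gad2, the other decarboxylase gene, was not well above background on any of the 7 arrays, with log2 values of 5.77 to 5.84. Such a value is a limit of the array and not a sign that the transcript is absent, since the dimmest probes well above background were at 5.65 to 5.84.

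The dedicated GABA transporters were below detection as well. Slc32a1, which loads GABA into vesicles, stood at 5.71 to 5.81 and Slc6a13, which takes up GABA at the cell surface, at 5.89 to 6.01, and neither was well above background on any array. No difference between the groups was therefore computed for them.

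Among the receptors, Gabra4 had log2 signals of 7.08, 6.95 and 7.47 in control 2, 3 and 4 and of 6.21, 6.58, 6.71 and 6.25 in Wnt4βKO 1 to 4. All 4 mutant arrays were below all 3 controls, with 0.24 between the nearest arrays of the groups. The means were 7.17 ± 0.27 (SD, n = 3) and 6.44 ± 0.25 (SD, n = 4). The difference was -0.73 ± 0.17 (limma SE), or 60.3% of the control level, and 0.585% of all tested probes had a lower difference. The raw median spot intensities, 80, 120 and 139 in the controls and 40, 60.5, 70 and 38 in Wnt4βKO, were low. The size of the difference changed with the background step, to -1.06 when no background was subtracted and -1.39 with an offset of 0 in place of 50. It was -1.60 for the signal processed by the scanner software, where the scaling between arrays differed as well. The groups did not overlap under any of these settings, nor with each array scaled to its median.

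Gabbr1 differed by less than the spread of the arrays on both of its probes. Probe A_52_P16232 read 6.62, 7.00 and 7.05 in the controls and 6.97, 7.03, 7.02 and 7.06 in Wnt4βKO, so that control 2 stood apart from 6 arrays that were close together. The difference was 0.13 ± 0.11, and without control 2 it was -0.0087. Probe A_51_P464900, near the detection limit and well above background on 5 of the 7 arrays, differed by 0.0085 ± 0.065. Gabbr2, the partner subunit, was well above background on 1 of the 7 arrays, Wnt4βKO 1 at 6.04, and lay between 5.82 and 5.97 on the others. Its mean was 5.92 in each group, near the detection limit, so that a difference between the groups could not be measured.

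**Figure D2:**
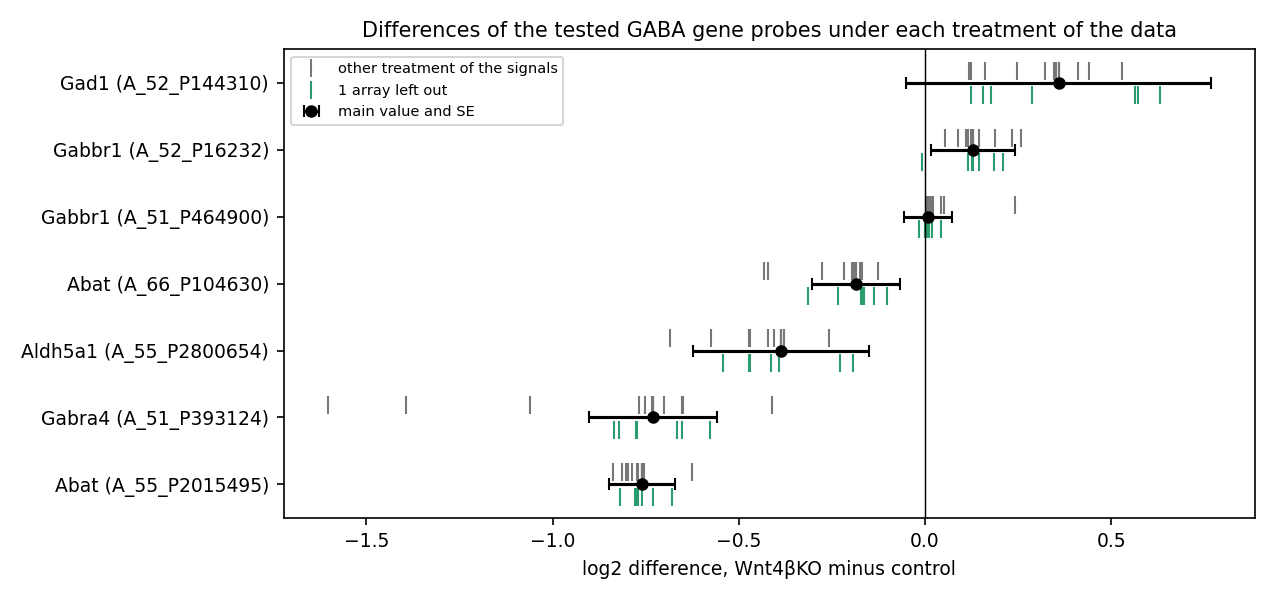
Log2 difference of each tested probe of the GABA genes, Wnt4βKO minus control, with the main value and its SE in black, grey ticks for other background, normalisation, filter and covariate settings, and green ticks for the values with 1 array left out. All ticks of Abat (A_55_P2015495), between -0.84 and -0.62, and of Gabra4, between -1.60 and -0.41, lie below 0, whereas those of the Gabbr1 probes lie on both sides.

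Isolated islets carry exocrine tissue, and the signal of its acinar cells was uneven over the arrays. The mean log2 signal of 29 acinar genes was 13.15, 13.00 and 13.06 in control 2, 3 and 4 and 11.90, 12.87, 12.75 and 12.16 in Wnt4βKO 1 to 4. Every mutant array was below every control, and all 29 genes passed the detection filter. Of these genes 25 were lower and 4 higher in Wnt4βKO, and the median difference was -0.55. At an unadjusted limma p of 0.05, 10 were lower, beside 3.63% of all tested probes. In 11 the groups did not overlap, all lower, beside 3.7% of all tested probes. In arrays of whole islets, fewer cells of a type and less RNA per cell cannot be told apart.

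The acinar mean separated the groups, so that its part in a difference and that of the genotype cannot be told apart in these arrays. Among the Wnt4βKO arrays, replicates 2 and 3 were higher than replicates 1 and 4 in both the acinar mean and Gabra4. Of these, replicate 2 had the higher acinar mean and replicate 3 the higher Gabra4. Among the controls, control 2 had the highest acinar mean, 13.15, with Gabra4 at 7.08. Control 4 had an acinar mean of 13.06 with the highest Gabra4, 7.47. With the acinar mean as a covariate the Gabra4 difference was -0.41 ± 0.20. The Abat values of Wnt4βKO 1 to 4 were 9.24, 9.21, 9.12 and 9.26, and with the same covariate the Abat difference was -0.84 ± 0.13. The mean of 12 β-cell markers was 11.21 to 11.32 in controls and 10.95 to 11.12 in Wnt4βKO, without overlap. Without Slc2a2, the glucose transporter gene and the marker with the lowest difference, the mean of the other 11 was 11.33 to 11.44 and 11.17 to 11.38, with overlap, and the part of these shifts in the Abat value was not tested. Of the 12 markers 6 were lower and 6 higher, Slc2a2 was called (-1.54 ± 0.10, limma adjusted p = 0.0088), and Ero1b (-0.86 ± 0.28), Glp1r (-0.47 ± 0.18) and Ins1 (0.29 ± 0.098) passed an unadjusted p of 0.05 only. Over all tested probes 0.0153% were called and 6.96% passed the unadjusted threshold. Neurons are rich in GABA receptors, and of the 11 tested neuron and Schwann cell markers 2 had groups that did not overlap, both lower, where 3.7% of all tested probes were lower in this way. Of the 11 markers 7 were lower and 4 higher, with a median difference of -0.058, and the mean of the list was 7.68 to 8.01 in controls and 7.42 to 7.83 in Wnt4βKO. Their part in the Gabra4 value was not tested.

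**Figure D3:**
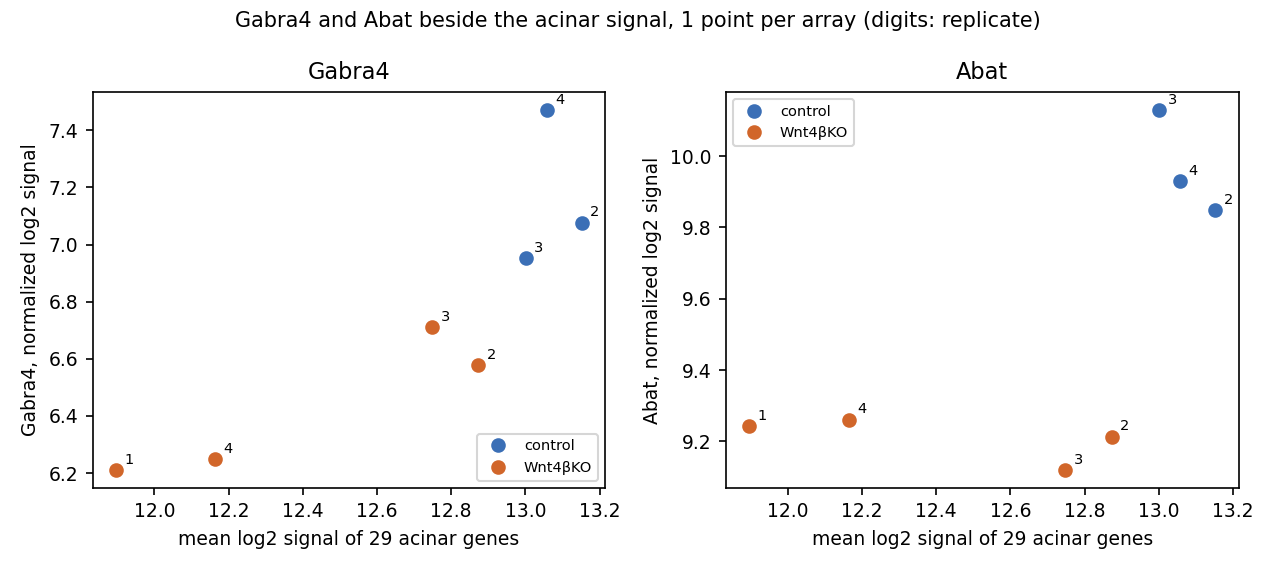
Normalised log2 signal of Gabra4 (left) and Abat (right, probe A_55_P2015495) against the mean log2 signal of 29 acinar genes, with 1 point per array and digits for the replicate. Among the 4 Wnt4βKO arrays, Gabra4 is higher in replicates 2 and 3, which also have more acinar signal, and Abat is between 9.12 and 9.26 in all 4. Among the controls, Gabra4 is highest in replicate 4 and the acinar signal in replicate 2.

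The wider pathway was described by 6 lists with 90 further genes, of which 60 were tested. At an adjusted limma p of 0.05, 0 of the 60 genes were called. At an unadjusted p of 0.05, 4 passed, or 6.67%, beside 6.96% of all tested probes, with 1 higher and 3 lower, and in 3 genes, or 5%, the groups did not overlap, beside 7.24% of all tested probes. The median difference of the 60 genes was -0.066.

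Of the other 18 GABA-A receptor subunits 3 were tested, and none passed. Gabrr2 differed by 0.016 ± 0.10 and Gabrd by -0.12 ± 0.11. Gabrd encodes the δ subunit, which is often joined with α4 in the brain, and its mean log2 signal in controls, 6.10, was close to the detection limit. Among 18 proteins that anchor, carry or couple GABA receptors, such as gephyrin (Gphn, 0.064 ± 0.10) and GABARAP (Gabarap, -0.26 ± 0.15), 14 were tested and none passed. In 1 of these, Trak1, a motor adaptor that binds GABA-A receptors, the groups did not overlap, with a difference of -0.21 ± 0.10 and an unadjusted limma p of 0.0698.

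Of 11 genes of GABA transport and release, 7 were tested. Slc6a6, the taurine transporter, which also carries GABA, had 8.74, 8.96 and 8.36 in the controls and 9.28, 9.01, 9.18 and 8.93 in Wnt4βKO. Only control 3 reached into the mutant range, and the difference was 0.42 ± 0.16 (limma, unadjusted p = 0.0302, adjusted p = 0.67). Lrrc8a and Lrrc8d, subunits of the volume-regulated anion channel through which β-cells can release GABA, differed by -0.12 ± 0.12 and 0.0058 ± 0.24. The GABA transporter genes Slc6a11 and Slc6a12 were not tested because they did not pass the filter.

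Glutamate is the substrate of the decarboxylases, and of the 12 tested genes of its supply and transport 10 were lower in Wnt4βKO, with a median difference of -0.10. The mean log2 signal of the 12 was 8.02 to 8.16 in controls and 7.76 to 7.99 in Wnt4βKO, without overlap. Slc38a2, a glutamine carrier, was at 8.32, 8.83 and 8.31 in the controls and at 7.59, 7.62, 8.08 and 7.56 in Wnt4βKO, where every mutant array was below every control. Its difference was -0.77 ± 0.18 (limma, unadjusted p = 0.0030, adjusted p = 0.49). Gpt2, the mitochondrial alanine aminotransferase, which can make or use glutamate, differed by -0.32 ± 0.13 with overlapping groups (limma, unadjusted p = 0.0384, adjusted p = 0.69). Glud1, the glutamate dehydrogenase gene, differed by -0.12 ± 0.11, about the size of its error.

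GABA can also be made from putrescine, with monoamine oxidase B (Maob) and the aldehyde dehydrogenase Aldh9a1 as enzymes. Of 10 genes on this and other side routes 9 were tested and none passed, with Maob at 0.25 ± 0.18 and Aldh9a1 at -0.21 ± 0.33. The citric acid cycle from isocitrate to succinate and the succinate dehydrogenase that follows were covered by 15 genes. The shunt bypasses only the part of this stretch from 2-oxoglutarate to succinate, which leaves out the isocitrate dehydrogenases. All 15 were tested, and 13 were lower with a median difference of -0.13. The mean log2 signal of the 14 measured on every array was 8.86, 9.32 and 8.82 in control 2, 3 and 4. In Wnt4βKO 1 to 4 it was 8.84, 8.86, 9.01 and 8.85, so that only control 3 lay above the mutant range. Of the 15 genes 1 passed the unadjusted threshold, Idh2, the mitochondrial isocitrate dehydrogenase, which makes 2-oxoglutarate upstream of succinate. Its signals were 11.40, 11.27 and 11.27 in the controls and 10.93, 10.79, 11.20 and 10.84 in Wnt4βKO, and the groups did not overlap. The difference was -0.37 ± 0.11 (limma, unadjusted p = 0.0111, adjusted p = 0.61).

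**Figure D4:**
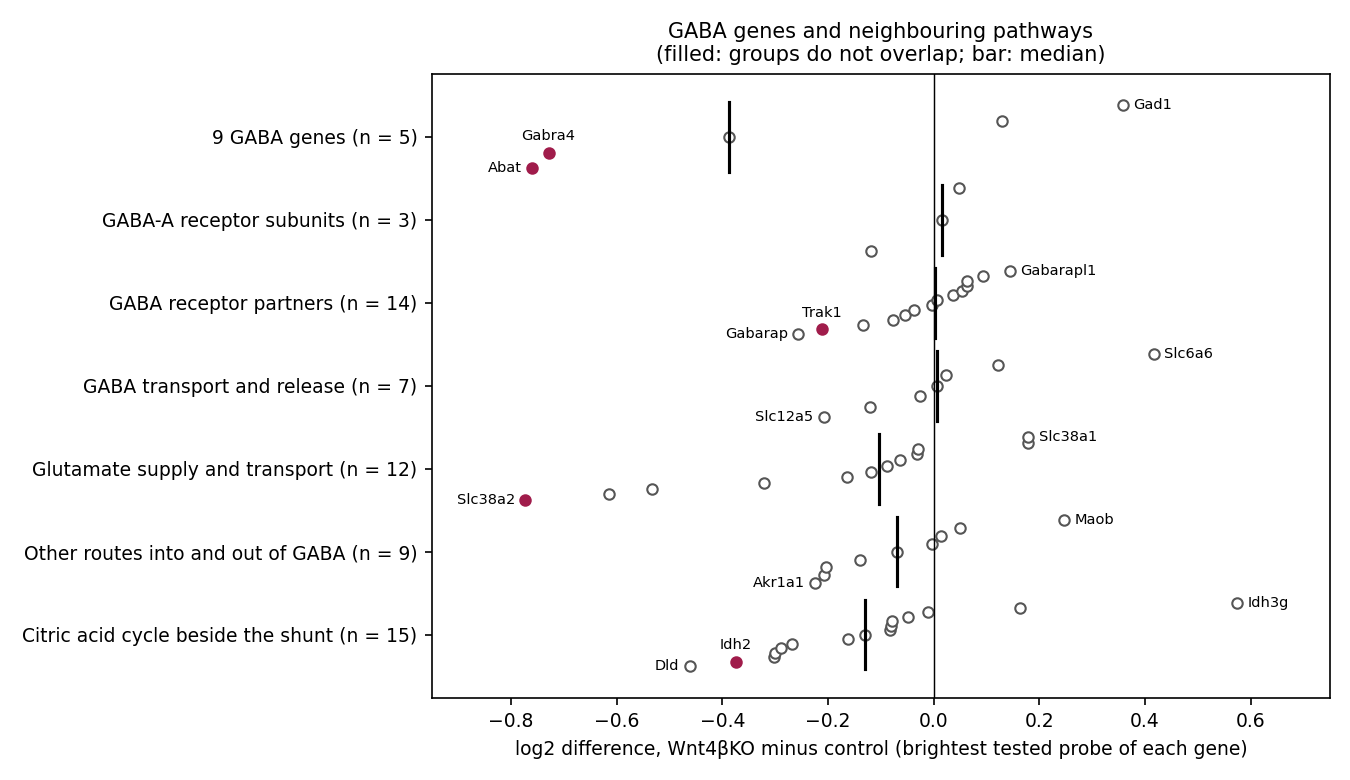
Log2 difference, Wnt4βKO minus control, of the brightest tested probe of each gene, by list, with n tested genes, filled points where the 3 control and 4 Wnt4βKO arrays do not overlap and a bar at the median. Abat at -0.76 and Gabra4 at -0.73 lie beside Slc38a2 at -0.77, and most genes of the receptor and transport lists lie near 0.

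The genes whose signal over the 7 arrays was most like that of Abat, by Pearson's r with probe A_55_P2015495, were Olfr63 (r = 0.989), Thap12 (r = 0.988), Mpp6 (r = 0.987), Coq8a (r = 0.977) and Elmo2 (r = 0.972). These were the highest values among all named tested probes, and the 7 arrays share the same group split, so they describe likeness only. All 5 had groups that did not overlap, with differences of -0.11, -0.12, -0.84, -0.39 and -0.20, where 3.7% of all tested probes were lower in this way. Choosing probes by likeness to an Abat probe without overlap favours such groups, so the count is not evidence about these genes. Olfr63 and Elmo2, with mean log2 signals of 5.99 and 6.12 in controls, were close to the detection limit. Mpp6, a membrane scaffold protein gene, was the one close to Abat in size, and Coq8a acts in coenzyme Q synthesis in the mitochondrion.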

How the data were processed

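Islet RNA of 3 control and 4 Wnt4βKO samples was measured on Agilent SurePrint G3 mouse arrays, 1 array per sample. The authors deposited scanner output with raw spot and background intensities and a background-subtracted processed intensity. The file headers name Feature Extraction 12.0.1.1 and the submitters' processing notes 9.1. Following the study's methods, median intensities were corrected with normexp (offset 50) and quantile-normalised, and limma 3.58.1 in R 4.3.3 gave the differences, their SE and p-values adjusted by Benjamini-Hochberg over all tested probes. Control spots were dropped, spots flagged as outliers were set to missing (65 values among tested probes) and repeated spots averaged. Testing was limited to probes well above background in 3 or more arrays. No array was left out of the fit. The study had excluded a control sample for quality, which is not analysed here.

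Probes were named by accession through RefSeq (GRCm38.p6), and for a gene with several probes the brightest tested one stands in the lists. Named are all probes of the 9 genes, genes of the pathway lists past an unadjusted p of 0.05 (other list genes were named after their values were seen), and the 5 probes most like Abat. The members and lists were chosen with earlier results of these data known. The fit was also run on simulated data. Their noise was independent between probes, so the run cannot show how differences shared by many probes, such as acinar signal, affect the calls. Since quantile normalisation gives all arrays 1 distribution, differences are relative to the other probes, and the offset shrinks those of dim probes. The number of arrays limits the precision. Some genes of the lists are counted but not reported by name here.

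The deposited value table (36693 rows, log2 scale, column medians 4.96 to 4.97) was not used. Its rank correlation with the scanner arrays was 0.773 to 0.813 for every pairing and highest with the array of the same sample in 1 of 7 columns. With each probe's mean over the samples removed, Pearson's r with the own array was -0.081 to 0.093. It was highest there in 2 of 7 columns. The scale's centring and the assignment of its columns thus stay unknown. The mismatch alone does not show which of the 2 sources is assigned otherwise than labelled, and all results here rest on the labels of the scanner arrays.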

Additional observations from a re-analysis of the deposited data

Results flagged for a closer look

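The second Abat probe (A_66_P104630) had 1 Wnt4βKO array apart from the other 3: replicate 4 at 6.46, beside 6.25 to 6.28. The gap to the nearest array was 0.871 of the range of the 4, above the 95% critical value of Dixon's test for 4 samples. The mean of the 14 citric acid cycle genes measured on every array had Wnt4βKO 3 apart in the same way, at 9.01 beside 8.84 to 8.86, with a gap of 0.867 of the range. Of 22 values examined in this way 2 passed, and chance passes about 1 in 20.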

How the results depend on the processing

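The Abat difference was below 0 under all 23 alternatives, between -0.84 and -0.47, with -0.82 to -0.68 when 1 array was left out, -0.70 and -0.80 within the slide rows (added after the data were seen), -0.62 for the processed signal scaled to the 75th percentile and -0.47 as the mean over both probes. Its SE, 0.088 in the main setting, ran from 0.069 as the mean over both probes to 0.24 under median scaling, and was 0.22 for the processed signal. Gabra4 was below 0 under all 22, between -1.60 and -0.41. Its difference was -1.08 in the upper slide row, which holds a single control, and -0.53 in the lower row. Both Gabbr1 probes changed sign when single arrays were left out, to -0.0087 and -0.017, and the Abat probe A_66_P104630 reached -0.42 with an offset of 0 and -0.43 for the processed signal. The GABA probes without overlap, 2 in the main setting, were 1 under median scaling and 2 to 3 when 1 array was left out. Without the filter on dim probes they were 3 of 11, the third being Gad2, whose values are all below detection and have no order.

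Over the whole array 4 probes were called, and this count was 7 for the processed signal, 2 with the acinar mean as a covariate, 2 with probes averaged per gene, and 2 to 5 when 1 array was left out (2 without control 2, control 3, control 4 or Wnt4βKO 3 in turn). At an unadjusted p of 0.05, 1821 probes (872 higher, 949 lower) became 770 under median scaling (225 higher, 545 lower), 2909 of 56605 without the filter, 581 with the acinar covariate, and 1449 to 2237 when 1 array was left out. The 4 pathway genes became 1 under median scaling, 7 with a trended and robust variance, 0 with the acinar covariate, where 581 probes of the whole array still passed, and 2 to 6 when 1 array was left out (2 without Wnt4βKO 1). The cause of these shifts was not tested. Control and Wnt4βKO arrays share the replicate numbers 2, 3 and 4, and deviations of same-numbered arrays correlated at -0.13, 0.23 and -0.0080. These 3 values are too few to settle whether the numbers pair the samples. With the replicate number as a block 2 probes were called in place of 4 and the Abat difference was -0.77. The alternative with the deposited value table was not run because its columns did not match the arrays. Dim probes such as Gabra4 and the undetected GABA genes are limited by signal over background.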
